A study of Mus musculus with 6 samples.

Results

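Complement genes were examined in aortic valve RNA of 4-month-old mice, in 8 of the 23107 gene rows of the deposited count matrix: C1ra, C2, C4b, C3, Cfb, Serping1, C3ar1 and C5ar1. The members were fixed by a list of symbols, each was found once, and all 8 reached the minimum count for testing. The samples were 3 libraries of controls, which the labels call wild type, and 3 of Acvr1:Nfatc1Cre mutants, all from an outbred strain at the same age. The mutants carried a constitutively active Acvr1 transgene that Cre switches on, together with a Cre cassette knocked into the Nfatc1 locus, so that the receptor was active in the endocardium, in cells derived from it and at the leaflet-wall junction, and not in all valve cells. According to the study's methods a control could also carry either the transgene or the Cre alone, and neither the genotype of each sequenced control beyond the words wild type nor any pooling of mice is given. Where nothing gives the source of a replicate, p-values measure only the spread between these libraries.

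Complement is a cascade of plasma and tissue proteins that marks surfaces for removal and recruits leukocytes. In the classical pathway C1q, C1r and C1s cleave C4 and C2, and in the alternative pathway factor B and factor D do the corresponding work, so that both routes form a convertase that splits C3. The fragments C3a and C5a attract and activate myeloid cells through the receptors C3ar1 and C5ar1, and C1 inhibitor, the product of Serping1, blocks C1r and C1s. The liver makes most plasma complement, while fibroblasts, endothelial, mesothelial and myeloid cells make part of it locally.

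The libraries held 32218345 to 55728852 fragments assigned to genes, so that 3 counts corresponded to 0.0560 to 0.0942 CPM. CPM (counts per 1000000 counts) is used here for values scaled by library size after TMM normalization, and it compares 1 gene between libraries. Defining markers of interstitial cells and endothelium were present in every library, at summed levels of 11880 to 15260 CPM for 10 interstitial and fibroblast markers and of 1787 to 2688 CPM for 8 endothelial ones. Cardiac muscle markers were also present, at summed levels of 12770 to 40570 CPM over 10 genes, with ranges that overlapped between the groups and the lowest sum in control replicate 2. Acvr1 itself had overlapping groups, at 49.1 to 67.4 CPM in the controls and 49.9 to 57.9 CPM in the mutants, and the matrix does not separate transgene from endogenous fragments. Control replicate 2 stood apart in several lists: mesothelial markers summed to 1259 CPM in it and to 119 and 228 CPM in the other controls, and smooth muscle markers to 14260 CPM, where those controls had 7945 and 7102 CPM and the mutants 3953, 6588 and 7175 CPM. Of these 8 smooth muscle markers 7 had a negative log2 fold change, and 2 were lower at an unadjusted p under 0.05, beside 1.86% of all genes. The complement genes are therefore also compared between the groups without this library, which was not done for the marker lists. In RNA of whole tissue, fewer cells of a type and less RNA per cell cannot be told apart.

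On GRCm38, the assembly also called mm10, 3 of the genes lie in the major histocompatibility region of chromosome 17. C4b lies from 34728380 to 34743882, Cfb from 34856374 to 34862518 and C2 from 34862604 to 34898265, all on the minus strand, and only 85 bases separate Cfb from C2. The annotation also places a read-through gene, Gm20547, over both, so that 79.5% of the exon bases of Cfb and 46.9% of those of C2 are shared with another gene, which for C2 includes Zbtb12 on the opposite strand. The library kit named in the labels does not keep the strand of a transcript. The annotation used here need not be that behind the deposited counts, and whether the latter held Gm20547 was not checked. The division of fragments between these genes therefore remains uncertain. C3 lies on chromosome 17 from 57203970 to 57228136, and Serping1 on chromosome 2 from 84765387 to 84775444. C1ra and C3ar1 lie on chromosome 6, from 124512405 to 124523443 and from 122847138 to 122856161, and C5ar1 lies on chromosome 7 from 16246743 to 16259540.

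C4b and C1ra each have a close copy in the mouse genome, and fragments from identical stretches cannot be assigned with certainty. Of the 50-base windows of the longest C4b transcript, 35.2% also occur in C4a, and of those of C1ra 48.0% also occur in C1rb. The copies received few counts: C4a had 3 to 57 per library against at least 5039 for C4b, and C1rb had 0 counts in 5 libraries and 1 count in mutant replicate 3 against at least 1828 for C1ra.

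Levels of different genes can be compared only per length, as FPKM (the CPM per kilobase of exon, here computed from the CPM and the merged exon length). Serping1 had the highest level in the controls, at 277 ± 73.8 FPKM (SD, n = 3), and C3 followed at 112 ± 71.9 FPKM (SD, n = 3). C4b stood at 25.9 ± 8.16 FPKM (SD, n = 3) and C1ra at 19.8 ± 4.82 FPKM (SD, n = 3). Cfb, C5ar1, C2 and C3ar1 had 10.3, 8.39, 7.77 and 3.33 FPKM as control means. The control ranges of Serping1 and C3, of C3 and C4b, and of C1ra and Cfb did not overlap, while those of C4b and C1ra, of Cfb and C5ar1, of C5ar1 and C2, and of C2 and C3ar1 did. The control mean of Serping1 was 2.47 times that of C3 and 35.6 times that of C2, and without control replicate 2 these ratios were 3.33 and 88.7. In control replicates 1 and 3 C2 was the lowest of the 8 genes, at 2.67 and 2.63 FPKM, below C3ar1 at 3.30 and 2.86 FPKM. With the longest transcript as the length, Serping1 came to 364 FPKM and C2, whose annotated exons include a long extra stretch, to 11.4 FPKM. That mean of C2 lay above the 10.5 FPKM of Cfb through control replicate 2 alone, since C2 had 3.91 and 3.86 FPKM in the other controls, where Cfb had 10.4 and 7.52 FPKM.

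**Figure D1:**
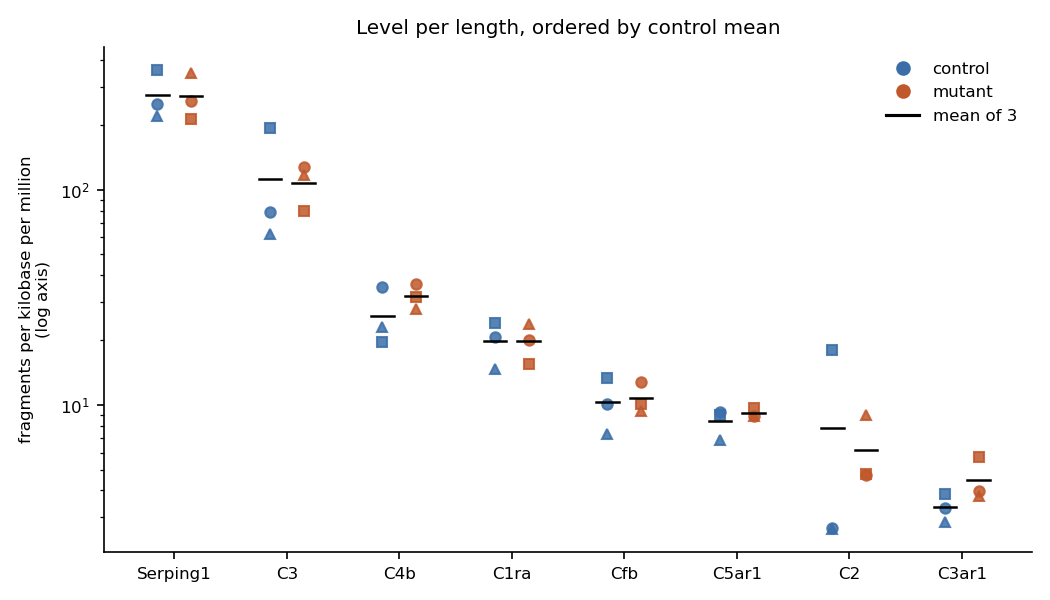
Level of each of the 8 complement genes per length, in FPKM on a log axis, in 3 control and 3 mutant libraries (circle, square and triangle for replicates 1, 2 and 3; bars, means). Serping1 and C3 sit above the rest, and C2 spans 2.63 to 18.0 in the controls alone.

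Between mutants and controls, none of the 8 complement genes changed beyond the spread between replicates. In the edgeR test 0 of the 8 reached an adjusted p under 0.05, and 0% of all 15354 genes tested did. At an unadjusted p under 0.05 there were again 0 of the 8, where 1.59% of all genes were higher and 1.86% lower. In 0 of the 8 did all mutants lie above all controls, which 4.04% of all genes did, or below them, as 4.83% did. In DESeq2, 0 of the 8 had an adjusted p under 0.05, against 0.169% of all genes. The median log2 fold change of the 8 was 0.03, beside 0.01 over all genes tested, with 4 positive and 4 negative. These values do not show that the genes were equal in the groups, since the 95% intervals of the fold changes were wide for several of them.

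**Figure D2:**
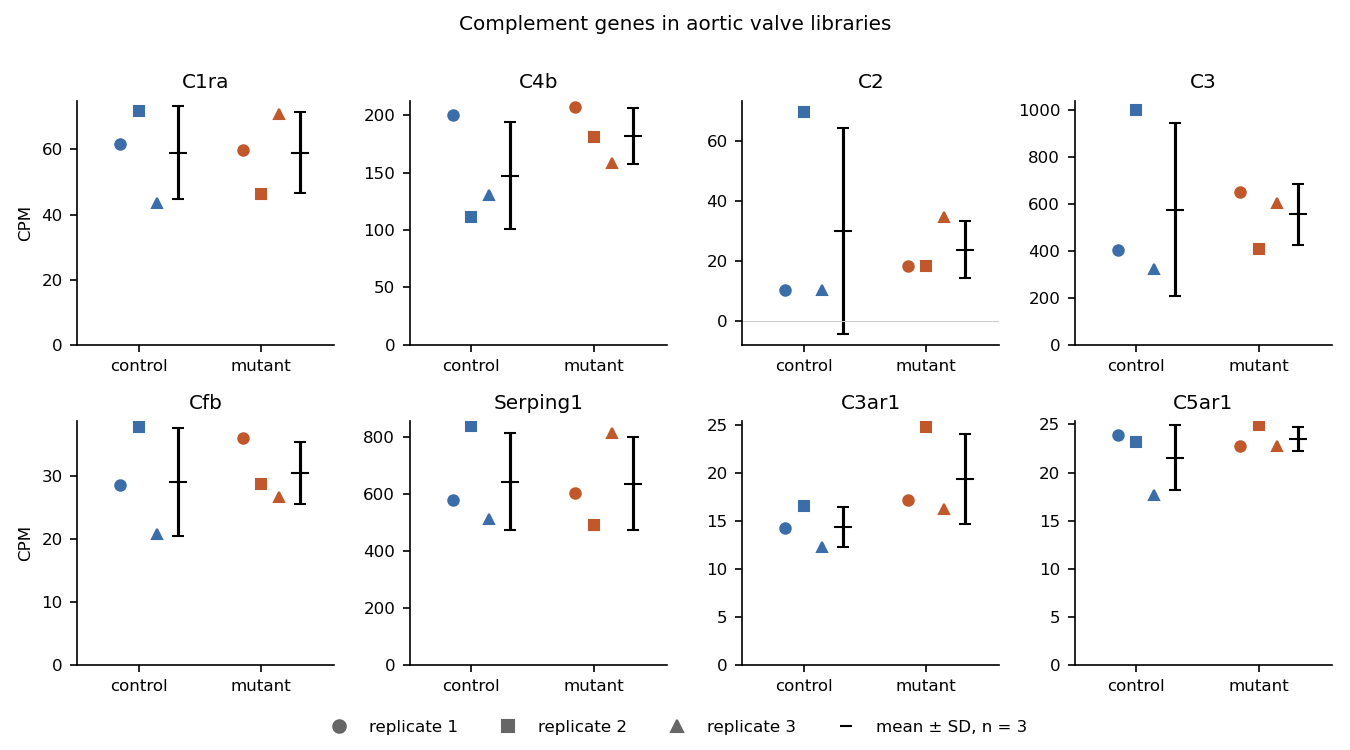
CPM of each complement gene (vertical axes start at 0 except for C2, whose SD bar passes below it) in control and mutant libraries, with the mean ± SD of 3 libraries beside them. In every panel the groups overlap, and control replicate 2 (square) is the highest point for C1ra, C2, C3, Cfb and Serping1.

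C1ra, the protease that starts the classical cascade, was read at 61.8, 71.8 and 43.5 CPM in control replicates 1, 2 and 3, and at 60.0, 46.2 and 71.0 CPM in the corresponding mutants. The 2 groups had nearly the same mean, 59.1 CPM. It had a log2 fold change of -0.00020 with a 95% interval from -0.53 to 0.53 (adjusted p = 1.00 from the edgeR test). Leaving out 1 library at a time gave -0.18 to 0.17.

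C4b, the substrate of C1s and the first part of the classical convertase, had 200, 112 and 131 CPM in the controls and 207, 182 and 158 CPM in the mutants. The mutants were closer together, and control replicate 1 lay within their range while the other controls lay below it. On the log2 scale the mutants differed by 0.31 (standard error 0.23, 95% interval -0.23 to 0.85, adjusted p = 0.999 from the edgeR test), and the exact permutation test, two-sided, gave p = 0.3 where 3 libraries against 3 allow no less than 0.1. The direction held in each fit that left out 1 library. The lowest value, 0.14, came without control replicate 2, and the highest, 0.59, without control replicate 1, where the unadjusted p was 0.0104 and the adjusted p 0.949 in edgeR.

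C2, the serine protease that pairs with C4b in that convertase, varied more than any other of the 8. It was read at 10.3, 69.8 and 10.2 CPM in the controls and at 18.3, 18.5 and 34.7 CPM in the mutants. Control replicate 2 was thus the highest of the 6 libraries, and the other controls were the lowest, below every mutant. Over all libraries the log2 fold change of C2 was -0.34 (standard error 0.77, 95% interval -2.15 to 1.48, adjusted p = 0.999 from the edgeR test). Leaving out control replicate 2 gave 1.22 (standard error 0.32, unadjusted p = 0.00777, adjusted p = 1.00 from the edgeR test), so that its direction turned with that library. The counts behind these levels ran from 469 to 3528.

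C3 is the central protein on which all pathways meet. The controls were read at 405, 1000 and 321 CPM and the mutants at 653, 410 and 603 CPM. Control replicate 2 again lay above all mutants, and the other controls lay below them, replicate 1 only slightly. The log2 fold change of C3 was -0.05 (standard error 0.44, 95% interval -1.08 to 0.98, adjusted p = 0.999 from edgeR). Leaving out control replicate 2 gave 0.61 (unadjusted p = 0.0374, adjusted p = 1.00 from edgeR).

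Cfb encodes factor B, the alternative-pathway counterpart of C2. Its levels were 28.5, 37.8 and 20.7 CPM in the controls and 35.9, 28.6 and 26.6 CPM in the mutants, so that the mutants lay within the range of the controls. The difference on the log2 scale was 0.067 (standard error 0.23, 95% interval -0.48 to 0.62). It turned to -0.13 when control replicate 3 was left out and to -0.071 when mutant replicate 1 was, and reached 0.31 when control replicate 2 was. Although Cfb and C2 are neighbours, the excess of C2 in control replicate 2 was not seen to the same degree in Cfb, whose highest and lowest libraries differed 1.83-fold against 6.84-fold for C2.

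Serping1 was read at 580, 838 and 513 CPM in the controls and at 603, 493 and 814 CPM in the mutants, with 1 high library in each group. The group means were 644 ± 172 and 637 ± 163 CPM (SD, n = 3). Its log2 fold change was -0.016 (standard error 0.26, 95% interval -0.64 to 0.60), and the sign turned to 0.22 without control replicate 2, to 0.14 without mutant replicate 2 and to 0.021 without mutant replicate 1.

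Of the receptors, C3ar1 had 14.2, 16.5 and 12.3 CPM in the controls and 17.1, 24.7 and 16.2 CPM in the mutants. Mutant replicate 3 lay just below control replicate 2, and this was the only overlap. C3ar1 had the lowest unadjusted p of the 8 genes, 0.0728, with a log2 fold change of 0.43 (standard error 0.20, 95% interval -0.052 to 0.91, adjusted p = 0.999 from the edgeR test) and p = 0.2 in the exact permutation test, two-sided. The direction held in all 6 fits that left out 1 library. Leaving out mutant replicate 2 gave the lowest value, 0.22, and leaving out control replicate 2 the highest, 0.55, with an unadjusted p of 0.0493 and an adjusted p of 1.00 in edgeR.

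C5ar1, the receptor for C5a, was the steadiest of the 8. Its levels were 23.9, 23.1 and 17.7 CPM in the controls and 22.7, 24.9 and 22.8 CPM in the mutants, and only control replicate 3 stood somewhat lower. Mutants and controls differed by 0.12 on the log2 scale (standard error 0.14, 95% interval -0.22 to 0.47), and it was -0.0030 without that library. Summed over 10 macrophage markers, the level was 390 to 435 CPM in the controls and 416 to 462 CPM in the mutants, with 6 markers higher and 4 lower. Over 7 neutrophil markers it was 5.11 to 17.5 CPM in the controls and 4.81 to 23.7 CPM in the mutants, highest in mutant replicate 2, where C3ar1 was also highest. The 17.5 CPM belonged to control replicate 1, where C3ar1 was read at 14.2 CPM, between the other controls. Red cell markers had their highest sums in the same libraries, 20410 CPM in control replicate 1 and 19810 CPM in mutant replicate 2. The part of these cells in the values of the receptors was not tested.

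**Figure D3:**
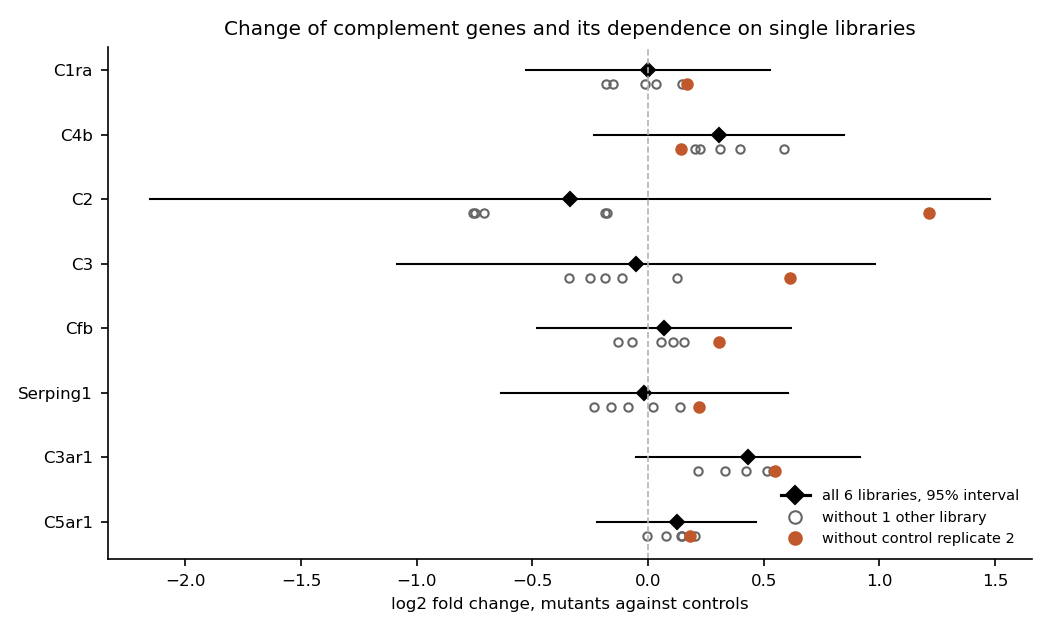
Log2 fold change of each complement gene, mutants against controls, with its 95% interval over all 6 libraries (diamonds) and the values without 1 library at a time (circles; filled, without control replicate 2). The filled circle lies at 1.22 for C2 and 0.61 for C3, on the other side of 0 from the diamonds.

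The groups were also compared without control replicate 2, a choice made after seeing the data. Of the members whose sign turned when 1 library was left out, only C2 turned with control replicate 2 alone. C1ra, C3 and Serping1 turned also without mutant replicate 2, to 0.15, 0.13 and 0.14. C2, C3 and C3ar1 were then higher in all 3 mutants than in both remaining controls, 3 of the 8, where 8.32% of all genes were. The log2 fold change of all 8 was positive in that fit, from 0.14 for C4b to 1.22 for C2, as were 50.6% of those of all genes, and 0 of the 8 had an adjusted p under 0.05. The library left out was the highest of all for 5 of the 8, and leaving it out raises their values by construction, so that the common sign is no support for a difference. Mesothelial markers (Upk3b, Msln, Wt1, Upk1b, Lrrn4 and Krt19) summed to 119, 1259 and 228 CPM in the controls and to 145, 386 and 543 CPM in the mutants, and all 6 were highest in control replicate 2, the library in which C2 and C3 were highest. Among the mutants, replicate 3 had the highest C2 and the highest mesothelial sum. C3 went the other way: mutant replicate 1 had the highest C3 of the mutants, 653 CPM, and their lowest mesothelial sum. Endothelial and smooth muscle sums were highest in control replicate 2 too, at 2688 and 14260 CPM. The sum over 8 adipocyte markers was also highest in control replicate 2, at 571 CPM, as were 7 of the 8, while Lipe was highest in control replicate 1. The other controls had 335 and 386 CPM and the mutants 282 to 457 CPM. Interferon-induced genes, 9 in the list, summed to 595 CPM in mutant replicate 1 and to 238 to 299 CPM in the other libraries, and in mutant replicate 1 the levels of C3, C4b and Cfb were the highest among the mutants. Their part in the levels of the complement genes was not tested. Of 8 hepatocyte markers only Ahsg was read above 0.609 CPM in any library, at 118, 120 and 164 CPM in the controls and 131, 132 and 109 CPM in the mutants, while Alb had at most 0.243 CPM.

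**Figure D4:**
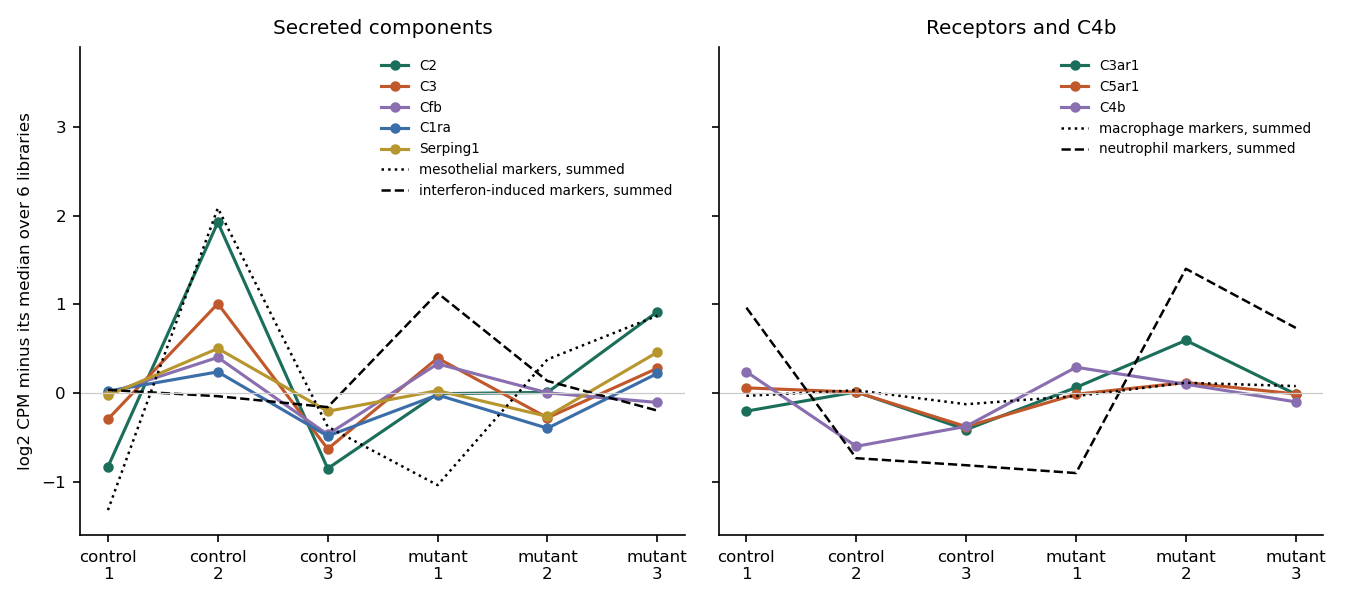
Log2 CPM of each complement gene in the 6 libraries, minus its median over them, with the summed level of marker genes on the same scale (lines only join values of 1 gene, since libraries have no order). C2 and the mesothelial markers peak in control replicate 2, and C5ar1 varies least of the 8 genes, while C3ar1 is highest in mutant replicate 2.

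Of 28 pairs of the 8 genes, 22 had a positive Pearson correlation of log2 CPM across the 6 libraries, 11 of the 15 pairs of secreted components and 11 of the 13 pairs with a receptor, and 0 had an adjusted p under 0.05 over the 28. The 4 negative pairs of secreted components all involved C4b. The 2 libraries farthest from the median of the first gene of a pair were then left out. With them left out, r was positive in 14 of the 28, 9 of the 15 secreted pairs and 5 of the 13 with a receptor. For C3ar1 and C5ar1, for example, r went from 0.73 to -0.94. Such trimming leaves few points, narrows the range of the first gene and drops different libraries in different pairs. It therefore cannot show that the count of positive pairs rested on particular libraries. The highest correlation over the 6 libraries was that of C1ra and Serping1, protease and inhibitor, with r = 0.91 (exact permutation p = 0.0194, adjusted 0.244, n = 6). Their Spearman's rho was 0.89 (exact permutation p = 0.0333, adjusted 0.544, n = 6). Without control replicate 3 and mutant replicate 2, the libraries farthest from the median of C1ra, r was 0.98. C2 and C3 had r = 0.90 (exact permutation p = 0.0306, adjusted 0.244, n = 6) and rho = 0.83 (exact permutation p = 0.0583, adjusted 0.544, n = 6), and r = 0.70 without control replicate 2 and mutant replicate 3. C4b ran against C2 with r = -0.55 (exact permutation p = 0.275, adjusted 0.642, n = 6) and rho = -0.37 (exact permutation p = 0.497, adjusted 0.819, n = 6). Without control replicate 2 and mutant replicate 3, the libraries farthest from the median of C2, r was 0.51. Since they were chosen by C2 itself, this does not show what the relation rested on.

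Promoter sequences are shown for 2 secreted components whose highest library was control replicate 2 and for the 2 receptors, whose highest library was mutant replicate 2. They are windows of 300 bases, from 250 before to 50 after the start that RefSeq gives on GRCm38.p6, which matched 4 of the 8 genes; C2, C4b, Cfb and Serping1 are named without sequence. They lie at chr6:124512371-124512670 on the plus strand for C1ra, and on the minus strand at chr17:57228087-57228386 for C3, chr6:122856108-122856407 for C3ar1 and chr7:16259289-16259588 for C5ar1. The gene coordinates given above start at 124512405 for C1ra and, on the minus strand, at 16259540 for C5ar1. By these, most of the windows of C1ra and C5ar1 lies inside the gene and need not be promoter sequence. The windows of C3 and C3ar1 lie mostly before the gene. Capitals mark matches, on either strand, to 6 motifs, the TATA sequence of core promoters and 5 motifs of factors known from inflammatory and myeloid genes.
C1ra: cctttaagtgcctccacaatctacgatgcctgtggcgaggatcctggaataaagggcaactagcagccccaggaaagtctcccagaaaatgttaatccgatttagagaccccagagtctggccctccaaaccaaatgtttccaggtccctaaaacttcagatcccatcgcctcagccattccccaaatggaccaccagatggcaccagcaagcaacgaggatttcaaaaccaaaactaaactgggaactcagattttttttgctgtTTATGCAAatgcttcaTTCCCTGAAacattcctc
C3: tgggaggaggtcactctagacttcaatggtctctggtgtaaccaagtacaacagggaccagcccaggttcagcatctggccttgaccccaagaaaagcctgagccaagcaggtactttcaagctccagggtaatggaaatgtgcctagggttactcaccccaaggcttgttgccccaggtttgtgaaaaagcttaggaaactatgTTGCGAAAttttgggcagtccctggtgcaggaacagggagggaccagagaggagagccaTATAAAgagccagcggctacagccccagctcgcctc
C3ar1: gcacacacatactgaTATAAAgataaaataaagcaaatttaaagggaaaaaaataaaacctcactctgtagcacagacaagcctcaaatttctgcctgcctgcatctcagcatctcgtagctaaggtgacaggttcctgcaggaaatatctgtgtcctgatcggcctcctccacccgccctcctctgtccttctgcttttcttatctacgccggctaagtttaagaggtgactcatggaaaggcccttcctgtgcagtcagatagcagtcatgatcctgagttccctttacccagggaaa
C5ar1: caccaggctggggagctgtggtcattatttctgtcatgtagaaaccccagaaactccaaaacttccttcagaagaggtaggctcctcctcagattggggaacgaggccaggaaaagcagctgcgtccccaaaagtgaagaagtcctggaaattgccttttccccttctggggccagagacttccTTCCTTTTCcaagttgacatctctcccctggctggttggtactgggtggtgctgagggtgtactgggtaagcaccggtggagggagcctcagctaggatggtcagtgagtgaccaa

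The letters TTGCNNAA, a core that C/EBP factors bind, occurred in the windows of C1ra and C3, and in 10.8% of all 32817 promoter windows. In C3 the match began 45 bases before the start. The letters TATAAA occurred in C3, 14 bases past the start, in C3ar1, 235 bases before it, and in 13.6% of all windows. Measured from the RefSeq start, neither lies at the usual distance of a TATA box, a short way before the start. Where transcription starts in these libraries was not tested. TTCNNNGAA, the STAT motif, occurred in C1ra and in 8.29% of all, and GAAANNGAA, part of the interferon-stimulated response element, in C5ar1 and in 8.55% of all. GGANTTNCC for NF-kB and GAGGAAGT for PU.1 had 0 matches in the 4 windows, and were found in 3.95% and 3.20% of all. No 2 matches overlapped. By the gene coordinates given above, the matches in C1ra and C5ar1 lie inside the gene. A match describes letters only.

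The wider complement system was read from a list of 60 symbols ordered by role, which gave 58 rows, of which 46 reached the minimum count. Of these 23 had a positive and 23 a negative log2 fold change, with a median of 0.02. Among all 46, 0 had an adjusted p under 0.05 in edgeR, and 1 passed in DESeq2, where 0.169% of all genes did. At an unadjusted p under 0.05, 5 were higher, beside 1.59% of all genes, and 1 was lower, beside 1.86%. Groups without overlap were found for 5 genes, 4 with the mutants higher, beside 4.04% of all genes, and 1 with the mutants lower, beside 4.83%. Without control replicate 2 the mutants were higher in 8 of the 46, beside 8.32% of all genes, the added ones being C2, C3, C3ar1 and Masp2, a protease of the lectin pathway. With all libraries included, the genes past any of these thresholds were outside the 8 described above.

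Vsig4, a receptor for C3 fragments on tissue macrophages, was read at 9.72, 7.99 and 8.39 CPM in the controls and at 14.6, 22.6 and 33.4 CPM in the mutants. The groups did not overlap (p = 0.1 in the two-sided exact permutation test, which cannot go lower here). The log2 fold change of Vsig4 was 1.44 (standard error 0.29, adjusted p = 0.999 from edgeR, 0.00709 from DESeq2), and 1.10 to 1.69 without 1 library at a time. The chains of C1q, which macrophages make and which recognizes bound antibody, did not pass in edgeR or DESeq2. C1qb was read at 226, 197 and 221 CPM in the controls and 262, 285 and 289 CPM in the mutants. Its log2 fold change was 0.38, that of C1qa and of C1qc 0.34, and the groups overlapped in none of the 3. Their adjusted p was 0.999 in edgeR, and in the fits without 1 library the unadjusted p stayed under 0.05 in 5, 6 and 3 of 6 for C1qa, C1qb and C1qc. Of the 10 macrophage markers 2 were higher at an unadjusted p under 0.05, beside 1.59% of all genes, and 0 were lower, beside 1.86%, and the part of macrophage number in these values was not tested.

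Cfp, which encodes properdin, the stabilizer of the alternative convertase, had 32.6, 25.6 and 27.9 CPM in the controls and 43.4, 30.7 and 44.6 CPM in the mutants. Its log2 fold change was 0.46 (standard error 0.17, unadjusted p = 0.0327, adjusted p = 0.999 from edgeR), with groups that overlapped, and 2 of the 6 fits without 1 library kept the unadjusted p under 0.05. Vtn, which encodes vitronectin, an inhibitor of the terminal complex, was lower in all mutants, at 3.67, 3.31 and 3.86 CPM against 5.82, 5.20 and 10.3 CPM. On the log2 scale Vtn had a difference of -0.98 (unadjusted p = 0.0145, standard error 0.30, adjusted p = 0.999 from edgeR), and without control replicate 3, where it was highest, the difference was -0.61.

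By role, the gene with the highest level per length in the controls was Clu among soluble regulators, at 490 FPKM, Cfd in the alternative pathway, at 478 FPKM, and C1qb among initiating components, at 197 FPKM. Clu, which encodes clusterin, and Cd59a, the highest membrane regulator at 101 FPKM, had log2 fold changes of -0.10 and -0.035. Cfd encodes factor D and is made in fat, and it was highest in control replicate 2 as C2 and C3 were, with 896 CPM. The other controls were read at 242 and 183 CPM, the mutants at 250, 151 and 663 CPM. Among the receptors Cd93 was highest, at 14.5 FPKM. C7, the highest terminal component at 12.7 FPKM, ranged from 11.8 to 79.8 CPM over the libraries. Most of the terminal pathway was near the limit of detection: 4 of its 7 genes did not reach the minimum count, and C8a and C8b had 0 counts in every library, which allows up to 0.0942 CPM in the smallest library. This limit covers counting error only.

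**Figure D5:**
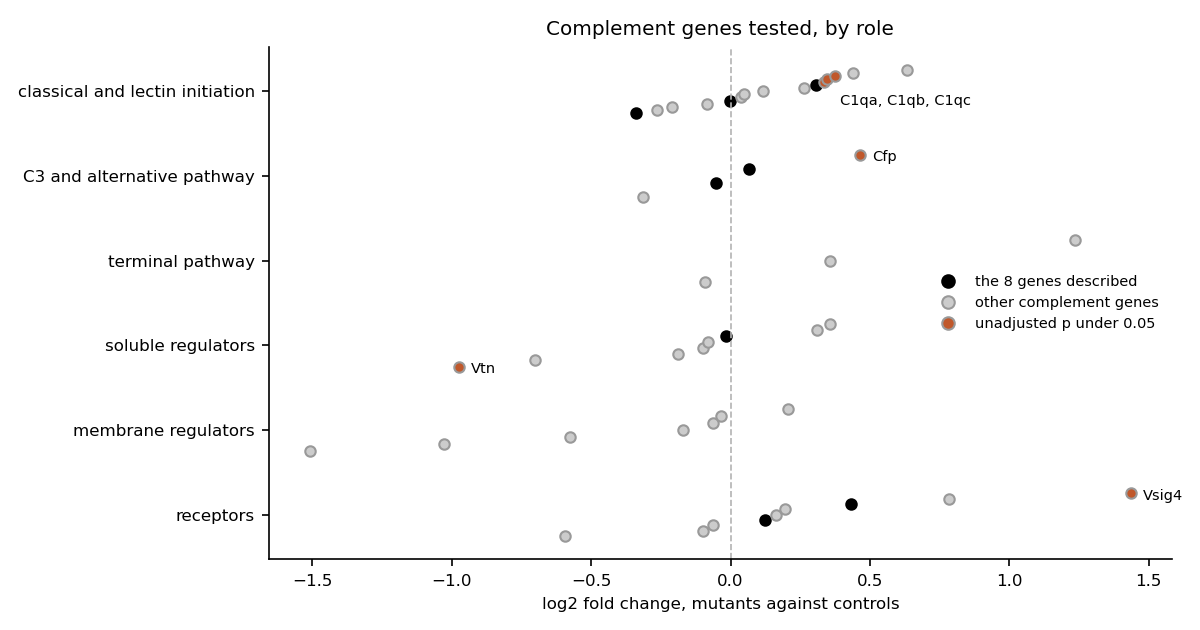
Log2 fold change, mutants against controls, of 46 complement genes by role (black, the 8 genes described; orange, unadjusted p under 0.05; grey, other complement genes). The 6 orange genes are Vsig4 at 1.44, Cfp at 0.46, C1qa, C1qb and C1qc at 0.34 to 0.38, and Vtn at -0.98, and all black points lie between -0.34 and 0.43.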

How the data were processed

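RNA of aortic valves from 3 control and 3 mutant mice or pools was sequenced by the authors. According to the submitters' processing notes, reads were aligned to mm10 with TopHat2 2.0.13 and Bowtie2 2.2.1, and genes were quantified with Cufflinks and Cuffdiff 2.1.1. The deposited values are estimated counts per gene and library, not scaled; between 1.66% and 1.87% were not whole and were rounded. Columns were matched by sample description. Symbols were matched to GENCODE M21 for 98.0% of rows, and older symbols through RefSeq synonyms.

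The 15354 genes that reached 10 counts in 3 or more libraries were compared with the quasi-likelihood test of edgeR 4.0.16 in R 4.3.3 after TMM normalization, without covariates, with Benjamini-Hochberg adjustment over all genes and a threshold of 0.05. The study's Cuffdiff test needs reads and was not run. The alternatives were DESeq2 1.42.0, limma-voom (limma 3.58.1), upper-quartile normalization, other count filters, a replicate block and leaving out each library. The code was tested on simulated data. Intervals cover 95%. The complement genes, the wider list and the marker lists were chosen with earlier results of these data known. The rule named all 8 genes, genes of the wider list with an unadjusted p under 0.05 or groups that do not overlap, the gene with the highest control level per length in each role, Acvr1 and Nfatc1, close copies, and the 5 genes most like the members' mean profile. Nfatc1 is given among other observations.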

Additional observations from a re-analysis of the deposited data

How the results depend on the processing

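With edgeR, 0 genes had an adjusted p under 0.05 under every normalization, filter and omission tried, over 15354 genes or, with the other filters, 18583 and 12642. With the main settings 529 had an unadjusted p under 0.05, and from 416 with the stricter filter to 814 with the replicate block in the others. DESeq2 called 26 genes, among them 1 of the complement list, and put 2 instead of 1 of the list lower at an unadjusted p under 0.05. The log2 fold changes of C3ar1 and C4b kept their direction in all 12 alternatives, and none of the 8 genes reached an adjusted p under 0.05 in any of them. In limma-voom the direction turned for C1ra (0.0028), C2 (0.17), C3 (0.11) and Serping1 (0.0041), and for C1ra also with upper-quartile normalization (0.0081) and with a mean count of at least 100 (0.0018); these values of C1ra and Serping1 lie close to 0, and for C2 and C3 the cause was not tested. Without 1 library at a time, log2 fold changes ran from -0.18 to 0.17 for C1ra, -0.76 to 1.22 for C2, -0.34 to 0.61 for C3, -0.13 to 0.31 for Cfb, -0.23 to 0.22 for Serping1 and -0.0030 to 0.20 for C5ar1. Of the complement list, 3 to 6 genes were then higher and 1 to 2 lower at an unadjusted p under 0.05, the 3 without control replicate 3. Higher in every mutant were 3 instead of 0 of the 8 genes, and 8 instead of 4 of the list, without control replicate 2. With the longest transcript as its length Serping1 stood at 364 FPKM.

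Replicate numbers are shared between the groups, but correlations of same-numbered libraries' deviations were 0.29, 0.082 and 0.031, so that the numbers were not taken to pair them, and control replicate 2 correlated best with mutant replicate 3 (0.20). With the replicate block 0 genes were called, and the log2 fold changes were 0.0074 for C1ra, 0.28 for C2 and 0.13 for C3. The direction of these turned, and the other members kept theirs. C3ar1 stood at 0.42 (standard error 0.13) and C4b at 0.34 (standard error 0.14), both with an adjusted p of 0.901 in edgeR.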

Other observations

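The tested genes outside the complement list whose log2 CPM was most like the mean profile of the 8 complement genes over the 6 libraries were A630055G03Rik (Pearson's r = 0.993), Smad9 (0.98), Vit (0.979), 4930599N23Rik (0.971) and Rbm45 (0.969). They are given as a description: with 6 points and many genes high values are found easily, and all points share library and depth. Smad9, which encodes a transcription factor of BMP signaling, was read at 3.13, 3.76 and 2.35 CPM in the controls and 3.69, 3.37 and 3.80 CPM in the mutants. Vit, which encodes vitrin, a matrix protein, was read at 46.7, 58.1 and 33.0 CPM in the controls and 59.2, 51.4 and 56.0 CPM in the mutants. In each, control replicate 3 was the lowest library, as it was in the mean profile. Nfatc1, whose locus carries the Cre, had 135, 161 and 116 CPM in the controls and 176, 173 and 133 CPM in the mutants, with groups that overlapped.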
